A study of Mus musculus with 6 samples.

Results

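The genes described here are 9 members of the purinergic system, that is receptors for extracellular nucleotides and adenosine and the ectonucleotidases that convert one into the other: P2ry14, P2ry10, P2ry1, P2rx4, P2rx7, Adora2a, Adora2b, Entpd1 and Nt5e. They were chosen by name, with values of DTA-1 and isotype control in view, and each matched 1 of the 53278 genes in the count table. Their difference between the groups is therefore given as values with standard errors and without a p-value. Type 2 innate lymphoid cells (ILC2s) were sorted from the visceral adipose tissue (VAT) of C57BL/6 mice, 8 weeks old, that had received 3 intraperitoneal injections of 1 µg recombinant mouse IL-33. The methods of the study describe the sort as lineage-negative cells positive for CD45, ST2 and CD117, and Il1rl1 (ST2) and Kit (CD117) were detected in every library. All cells were then kept in culture with IL-2 and IL-7, each at 10 ng/mL. The labels give 48 h for this culture, although the results text of the study gives a shorter time. The DTA-1 group received DTA-1 (5 µg/mL), an agonistic antibody to the TNF receptor family member GITR, and the control group received the isotype control, with 3 libraries in each group, each made from 10 ng of RNA. Every library thus comes from cells exposed to IL-33 in the mouse, and no group without IL-33 was compared here. The labels do not say whether libraries of a group came from separate mice or cultures, so the spread between them may be technical.

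Cells release ATP, ADP and UDP-sugars when they are activated, stressed or damaged, and these molecules act on neighbouring cells as signals. P2X receptors are cation channels opened by ATP, whereas P2Y receptors are G protein-coupled and differ in their ligand. At the cell surface CD39, encoded by Entpd1, removes phosphates from ATP and ADP to give AMP, and CD73, encoded by Nt5e, turns AMP into adenosine. Adenosine then binds the receptors encoded by Adora2a and Adora2b, which raise cyclic AMP and in many lymphocytes dampen activation.

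The total count was 34557215 to 35131329 per library with isotype control and 30569351 to 32492849 with DTA-1. A gene at 0 could still have up to 3 counts, equal to 0.0854 to 0.0981 CPM (counts scaled to the depth of the library), a limit for counting error alone. Of the 12 ILC2 and sort markers all were detected, and their summed normalized count (CPM after TMM scaling) was 13723 to 14594 with isotype control and 14773 to 19150 with DTA-1. The higher sum lay mostly in Il5 (mean 5325 and 8074), since 7 of the 12 had a lower mean with DTA-1 and 5 a higher one. Il5 was at 5063, 5418 and 5493 with isotype control and at 5627, 9695 and 8899 with DTA-1 (adjusted p = 0.627 by edgeR). Icos was at 156, 173 and 157 with isotype control and at 157, 99.0 and 98.4 with DTA-1 (adjusted p = 0.627 by edgeR). The target of the antibody, Tnfrsf18, was at 666 to 747 and 657 to 756. Markers of other cells were partial: S100a8 and S100a9 of neutrophils, Ms4a1 of B cells, C1qb of macrophages, Cd8a, Cdh5 of endothelial cells and Lep of adipocytes had 0 counts in every library, whereas Cd3g of T cells had 1270 to 1720 counts, Cd79b of B cells 525 to 611 and Cd68 of macrophages 140 to 332. The library labelled DTA-1 replicate 1 stood apart from its group. The chi-square of counts per degree of freedom was 9.7 to 11.4 between it and each isotype control library. Between the isotype control libraries themselves this value was 11.5, 12.2 and 17.2. It was 27.4 and 28.5 between DTA-1 replicate 1 and the other DTA-1 libraries, and 11.5 between those. Whether its label is right cannot be told from these data, and every DTA-1 mean below includes it unless said otherwise. The difference between the groups is therefore given with and without it for each of the 9 genes, and the choice to do so was made with the values known.

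The sequence upstream of the annotated start is shown for the 3 P2Y family members, which differed between the libraries in the same direction, and for Adora2b, which differed in the opposite one. RefSeq windows on GRCm38.p6 were found for 8 of the 9 genes, 14 windows in all, and the 250 bases before each start were searched on both strands for the AP-1 motif TGANTCA, the GATA motif AGATAA and the κB motif. Only bases outside the exons of the gene in GENCODE M21 are printed, 5′ to 3′ along the strand of the gene, and capitals mark a match to AP-1 or GATA.
P2ry14, first start (chr3:59153619-59153742, minus strand): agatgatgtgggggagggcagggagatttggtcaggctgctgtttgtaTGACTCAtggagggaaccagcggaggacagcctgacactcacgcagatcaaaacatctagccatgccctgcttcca
P2ry14, second start (chr3:59131329-59131578, minus strand): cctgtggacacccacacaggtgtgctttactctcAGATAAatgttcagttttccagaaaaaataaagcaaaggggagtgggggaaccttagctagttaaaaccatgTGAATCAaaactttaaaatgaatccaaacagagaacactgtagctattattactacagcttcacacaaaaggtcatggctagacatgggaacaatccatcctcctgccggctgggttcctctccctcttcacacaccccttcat
P2ry10, first start (chrX:107088242-107088491, plus strand): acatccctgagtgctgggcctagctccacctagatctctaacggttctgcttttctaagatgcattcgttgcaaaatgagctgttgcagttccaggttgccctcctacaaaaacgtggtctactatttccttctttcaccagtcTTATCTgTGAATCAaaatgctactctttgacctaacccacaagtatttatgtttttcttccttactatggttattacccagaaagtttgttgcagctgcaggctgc
P2ry1 (chr3:61002535-61002784, plus strand): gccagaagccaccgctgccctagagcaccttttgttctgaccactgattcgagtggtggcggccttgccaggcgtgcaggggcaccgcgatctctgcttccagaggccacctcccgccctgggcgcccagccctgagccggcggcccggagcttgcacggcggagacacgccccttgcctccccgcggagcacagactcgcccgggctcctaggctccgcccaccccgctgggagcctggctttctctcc
Adora2b (chr11:62248734-62248983, plus strand): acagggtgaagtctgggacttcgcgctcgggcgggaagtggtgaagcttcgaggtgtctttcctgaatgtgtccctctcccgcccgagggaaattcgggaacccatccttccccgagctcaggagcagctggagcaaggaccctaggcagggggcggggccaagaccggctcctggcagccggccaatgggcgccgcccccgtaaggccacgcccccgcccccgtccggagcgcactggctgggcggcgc

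An AP-1 match was found in 4 of the 14 windows, those of both P2ry14 starts shown, the first P2ry10 start and the first P2rx7 start. P2ry14 has 2 more starts and P2ry10 1 more, which are not printed and hold no match to any of the 3 motifs. It was found in 6.75% of all 32851 windows of the same length. A GATA match was also found in 4 of the 14 windows and in 9.99% of all windows, and the 3 windows with both were the P2ry14 and P2ry10 windows shown, against 0.919% of all windows. In P2ry10 the GATA match lay 1 base before the AP-1 match, and at the first P2ry14 start the GATA match fell in the exonic part that is not printed. No window of a member had a κB match, which 7.25% of all windows had. The windows of P2ry1 and Adora2b held none of the 3 motifs and were rich in G and C, at 70.8% and 69.6%, whereas P2ry10 and the second P2ry14 start were at 43.2% and 43.6%. The AP-1 search left the middle base open. With only C or G there, just the first P2ry14 start and the first P2rx7 start would match. Of the windows with both motifs, only that of the first P2ry14 start would remain. The share of all windows with this stricter match was not counted, so these stricter matches have no background to be set against. The genes were chosen with the contrast in view, and the windows of both P2ry14 starts shown belong to 1 gene. No enrichment is therefore read from these shares. These matches are a description of letters, and no binding was measured.

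To compare the genes with each other, the normalized count was divided by the length of all annotated exons of the gene. In isotype control Adora2b had the highest level per kb (33.6 ± 1.21, SD, n = 3) and P2ry1, the ADP receptor, was next to it (32.4 ± 0.869). The range of these genes overlapped, so their order is not resolved. They were followed by P2ry10 (15.3 ± 0.837), P2ry14 (10.0 ± 0.167), P2rx4 (6.21 ± 0.803) and Adora2a (5.00 ± 0.0680), and no library of one of these overlapped with the next. Nt5e (1.03 ± 0.157), Entpd1 (0.525 ± 0.283) and P2rx7 (0.225 ± 0.142) were the lowest, and Entpd1 and P2rx7 overlapped. Of the 14069 tested genes with a length, 88% lay below Adora2b, 49.3% below Adora2a and 8% below P2rx7. The order of the group means was the same with DTA-1. It depends on the transcripts counted as the gene: per kb of the longest protein-coding transcript (2.48 kb against 11.1 kb for all exons), P2ry14 had the highest level of the 9 genes, 44.8 ± 0.744, ahead of P2ry1 at 35.8 ± 0.960 and Adora2b at 33.6 ± 1.21. By both lengths Nt5e, Entpd1 and P2rx7 were the lowest.

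**Figure D1:**
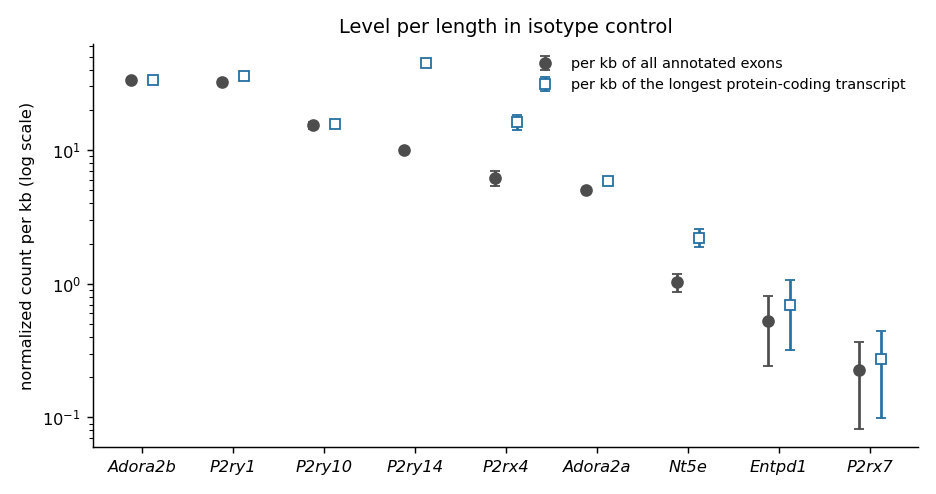
Mean level per length of the 9 genes with isotype control (± SD, n = 3), as normalized count per kb on a log axis, with the length taken as all annotated exons (filled circles) or as the longest protein-coding transcript (open squares). Nt5e, Entpd1 and P2rx7 are lowest by both, and P2ry14 moves from 10.0 to 44.8.

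DTA-1 was compared with isotype control across all genes by edgeR's quasi-likelihood test, and a gene was called at a Benjamini-Hochberg adjusted p under 0.05 with a change of at least 1.5-fold. With all 6 libraries 0% of the 14361 genes tested were called (337 passed both limits with the unadjusted p, and DESeq2's Wald test called 25 genes), and so none of the 9 members was. All 9 passed the filter on low counts. The mean was lower with DTA-1 for 7 members and higher for Adora2b and Entpd1, and the median log2 fold change over the members was −0.13 (−0.01 over all genes). The groups did not overlap for P2ry1 and Adora2a, both lower with DTA-1, beside 6.03% of all genes. No member was higher with DTA-1 in every library, beside 5.26% of all genes. Without DTA-1 replicate 1, P2ry14 was called as lower, beside 0.161% of 14911 genes, and no member was called as higher, beside 0.583%. In that comparison P2ry14, P2ry10, P2ry1 and Adora2a were lower in both remaining DTA-1 libraries than in every isotype control library, beside 15.9% of all genes, and Adora2b was higher, beside 15.4%. The members were chosen on this contrast, and DTA-1 replicate 1 was left out with the values known. Nothing is therefore read from the call of P2ry14 or from these shares. In RNA of a whole sort, fewer cells that express a gene and less RNA per cell cannot be told apart.

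**Figure D2:**
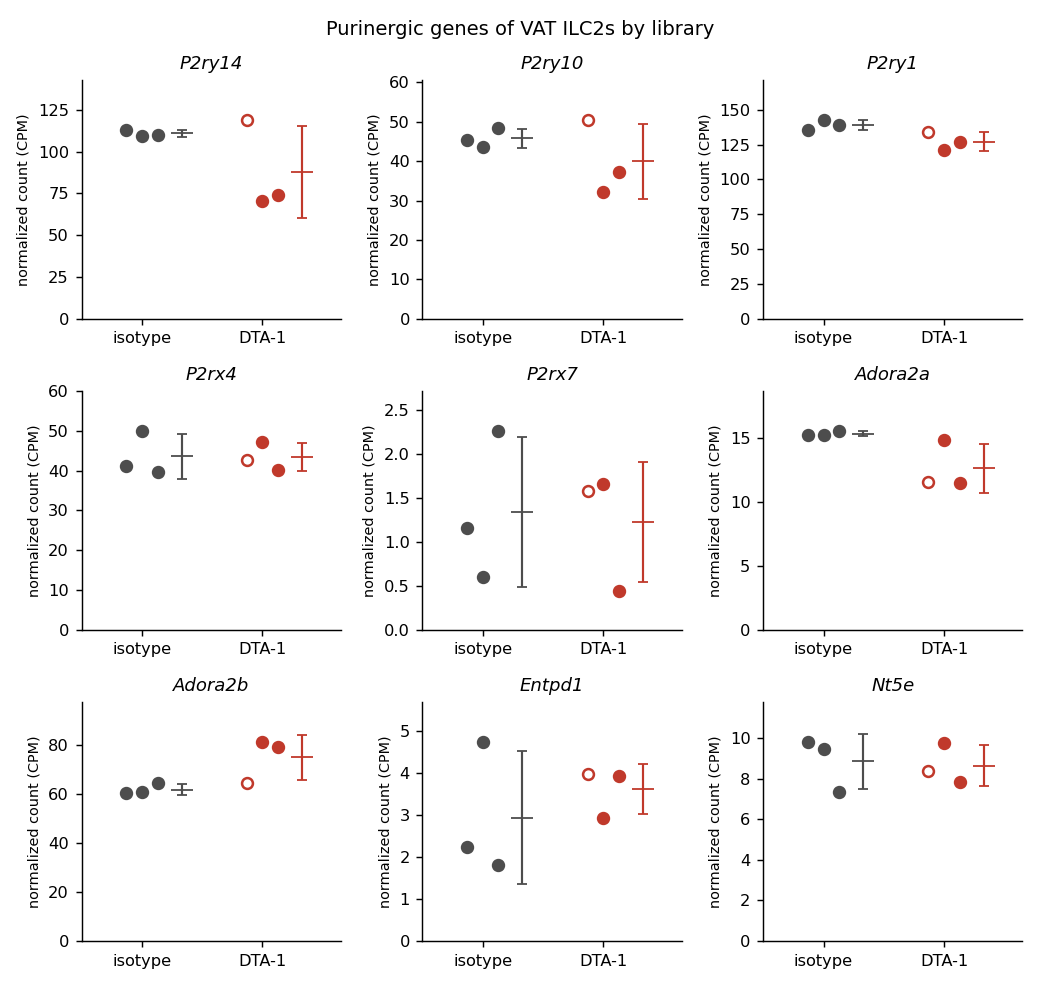
Normalized count (CPM after TMM scaling) of each gene in each library of isotype control (gray) and DTA-1 (red), with the mean ± SD (n = 3) beside the points. The open red circle is DTA-1 replicate 1, which lies near the isotype control libraries for P2ry14 (119), P2ry10 (50.6) and Adora2b (64.5) but not for Adora2a (11.5).

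Among the P2Y receptors, P2ry14, the receptor for UDP-glucose and other UDP-sugars, had the largest difference once DTA-1 replicate 1 was left out. Its gene (ENSMUSG00000036381.13) lies at chr3:59113855-59153618 on the minus strand of GRCm38. Its normalized counts were 113, 109.6 and 110.0 with isotype control and 119, 70.3 and 73.8 with DTA-1, here and below in the order of replicates 1, 2 and 3. The isotype control libraries lay within a few counts of each other, DTA-1 replicate 1 was the highest of all 6, and DTA-1 replicates 2 and 3 were far below the rest. The log2 fold change was −0.34 (SE 0.163) with all libraries and −0.62 (SE 0.072), that is 1.54-fold lower, without DTA-1 replicate 1. The counts behind these values were 2195 to 3997 per library.

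P2ry14 lies within Med12l, which is on the opposite strand and had 324 to 529 counts per library. The expected counts of P2ry14, P2ry10 and P2ry1 were not whole numbers in any library. An estimate can give such values where reads may belong to more than 1 feature. P2ry10 had no overlapping gene in the count table, however. Entpd1, which holds Gm8783 on the same strand, had whole numbers in all 6 libraries. Fractional counts thus do not show which genes shared reads. Whether the counting used strand is not given in the sources used here, so reads of P2ry14 and Med12l on shared bases cannot be told apart. Med12l itself was at 9.16, 15.1 and 12.7 normalized counts with isotype control and 12.2, 12.9 and 13.02 with DTA-1, with overlapping groups. The same interval holds P2ry13, with at most 2 counts in a library, and P2ry12, the platelet ADP receptor, with at most 19. It also holds Gpr171, a related receptor gene, with 5887 to 8700 counts. Gpr171 was at 246, 222 and 235 with isotype control and 243, 189 and 185 with DTA-1, where replicates 2 and 3 were again the lowest and replicate 1 was within the isotype control range. Its log2 fold change was −0.19 (adjusted p = 0.732 by edgeR) with all libraries and −0.33 (adjusted p = 0.0437), under 1.5-fold, without DTA-1 replicate 1, and its adjusted p ranged from 0.0437 to 0.9985 over the alternatives tried. DTA-1 replicate 1 was left out with the values known, so nothing is read from the lower of these.

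P2ry10 (ENSMUSG00000050921.12, chrX:107088492-107104974, plus strand) is named as a P2Y receptor but responds to lysophosphatidylserine. Its normalized counts were 45.3, 43.5 and 48.4 with isotype control and 50.6, 32.1 and 37.4 with DTA-1. As for P2ry14, DTA-1 replicate 1 was the highest library and replicates 2 and 3 the lowest. The log2 fold change was −0.19 (SE 0.146), and −0.40 (SE 0.108) without DTA-1 replicate 1.

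P2ry1 (ENSMUSG00000027765.6, chr3:61002795-61008982, plus strand) encodes the Gq-coupled receptor for ADP and had the highest normalized count of the 9 genes. It lies 1.85 Mb from P2ry14. Its values were 136, 143 and 139 with isotype control and 134, 121 and 127 with DTA-1, so every DTA-1 library lay below every isotype control library, although replicate 1 did so by less than 2 counts. The difference was small, with a log2 fold change of −0.13 (SE 0.067), and −0.17 (SE 0.066) without DTA-1 replicate 1. An antisense gene, Gm37035, overlaps P2ry1 with 86.4 to 150 counts, against 3772 to 5016 for P2ry1. Among markers of other cells, the endothelial marker Pecam1 was lower in the same libraries, at 24.4, 18.4 and 22.2 with isotype control and 18.3, 10.4 and 10.8 with DTA-1 (adjusted p = 0.627 by edgeR), and the sum of the 4 endothelial markers was 18.4 to 24.4 and 10.6 to 18.3. The other endothelial markers were at or near 0, with no count of Cdh5, at most 5 of Kdr and at most 1 of Vwf. Other markers were also lower in every DTA-1 library, as P2ry1 and Adora2a were. They include the ILC2 marker Gata3 (adjusted p = 0.789 by edgeR). Gata3 was at 1716, 1688 and 1688 with isotype control and 1678, 1525 and 1607 with DTA-1. The sort marker Kit was at 102, 129 and 98.8 with isotype control and 128, 75.8 and 80.8 with DTA-1. Of the ILC2 markers, Il5 and Il2ra went the other way and were higher in every DTA-1 library. The fibroblast marker Col1a1 was at 1.70, 1.60 and 1.93 with isotype control and 0, 0.288 and 0.0941 with DTA-1 (adjusted p = 0.491 by edgeR). Pdgfra was at 1.92, 0.399 and 0.709 with isotype control and had no count with DTA-1 (adjusted p = 0.452), while the sum of the 6 fibroblast markers overlapped, at 2.19 to 8.39 and 0 to 3.98. Foxp3 of regulatory T cells was at 2.94, 2.54 and 2.83 with isotype control and 2.13, 1.19 and 2.32 with DTA-1 (adjusted p = 0.744), while the sum of the 6 T cell markers overlapped, at 42.6 to 56.2 and 48.2 to 52.4. The part of these cells in the values of the members was not tested.

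By a rule on likeness across the 6 libraries, the genes whose log2 CPM was most like P2ry14 were Lsr, Hba-a2 and Zdhhc16 (Pearson r 0.997, 0.997 and 0.996), and those most like P2ry1 were Ppm1h, Trp53inp1 and 4933439C10Rik (r 0.997, 0.993 and 0.991). These are the highest values among all genes tested, over 6 points that share their scaling and groups, and they carry no test. Ppm1h, a phosphatase gene, was at 150, 161 and 153 with isotype control and 149, 126 and 135 with DTA-1. Zdhhc16 was at 60.1 to 60.4 with isotype control, 60.8 in DTA-1 replicate 1 and 52.8 and 54.1 in the others, which is the order of P2ry14 with a smaller difference.

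The ATP-gated channels did not separate the groups. P2rx4 (ENSMUSG00000029470.15, chr5:122707544-122729738, plus strand) encodes a channel that is sensitive to low ATP, and was at 41.2, 50.1 and 39.6 with isotype control and 42.8, 47.3 and 40.3 with DTA-1. The ranges overlapped almost fully, and the log2 fold change was −0.01 (SE 0.112), and 0.01 (SE 0.127) without DTA-1 replicate 1. P2rx7 (ENSMUSG00000029468.17, chr5:122643911-122691432, plus strand) encodes the channel that opens at high ATP and triggers the inflammasome in macrophages, and it ends 16112 bp before P2rx4. It had only 14.1 to 80 counts per library, or 1.16, 0.599 and 2.27 normalized counts with isotype control and 1.58, 1.67 and 0.439 with DTA-1. Its log2 fold change of −0.13 had an SE of 0.588, was −0.35 (SE 0.686) without DTA-1 replicate 1, and went from −0.48 to 0.48 as single isotype control libraries were left out, so no difference was detectable with this depth and spread.

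The 2 adenosine receptors differed in opposite directions. Adora2a (ENSMUSG00000020178.6, chr10:75316877-75334784, plus strand), the adenosine receptor of higher affinity, was at 15.2, 15.2 and 15.6 with isotype control and 11.5, 14.8 and 11.5 with DTA-1, from 357 to 549 counts. Each DTA-1 library was below each isotype control library, replicate 2 by little, and the log2 fold change was −0.28 (SE 0.149). Without DTA-1 replicate 1 it was −0.22 (SE 0.158). DTA-1 replicate 1 thus lay with its own group here, unlike for P2ry14, P2ry10 and Adora2b.

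Adora2b (ENSMUSG00000018500.2, chr11:62248984-62266453, plus strand), the receptor of lower affinity for adenosine, was at 60.4, 60.9 and 64.5 with isotype control and 64.5, 81.5 and 79.4 with DTA-1. DTA-1 replicate 1 was within the isotype control range, and replicates 2 and 3 were above every other library. The log2 fold change was 0.28 (SE 0.097), and 0.38 (SE 0.079) without DTA-1 replicate 1, where the change stayed under 1.5-fold at 1.30-fold. The mast cell gene Cpa3 was higher in the same DTA-1 libraries, at 7.49, 7.30 and 4.37 with isotype control and 6.83, 19.4 and 12.8 with DTA-1 (adjusted p = 0.627), and the sum of the 7 mast cell and eosinophil markers was 10.4 to 16.2 and 12 to 30.5. Of the other markers on that list Mcpt4 had at most 14 counts and Siglecf, Epx and Prg2 at most 13, 3 and 4, while Tpsb2, at 113 to 258 counts, overlapped between the groups. Fcer1a, at 27 to 100 counts, overlapped too, with a mean of 1.60 with isotype control and 2.42 with DTA-1. The part of cells that express these markers in the Adora2b values was not tested.

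Taken per kb within each library, Adora2b was 6.60, 6.65 and 6.88 times Adora2a with isotype control and 9.27, 9.13 and 11.5 times with DTA-1. The means were 6.71 ± 0.150 and 9.96 ± 1.31 (SD, n = 3). Here all 3 DTA-1 libraries, including replicate 1, lay above all isotype control libraries. In replicate 1 this came from the low Adora2a value, and in replicate 2 mostly from the high Adora2b value. The pairs were formed with the values known, from members chosen on this contrast. Adora2a alone was already lower in every DTA-1 library, so its ratio with Adora2b adds no separate evidence. The other 4 ratios computed within libraries (P2rx4 to P2rx7, Nt5e to Entpd1, P2ry1 to P2ry14 and P2ry14 to P2ry10) overlapped between the groups. P2ry1 was 3.09 to 3.36 times P2ry14 with isotype control, and 2.90 times in DTA-1 replicate 1 against 4.43 and 4.42 times in replicates 2 and 3.

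**Figure D3:**
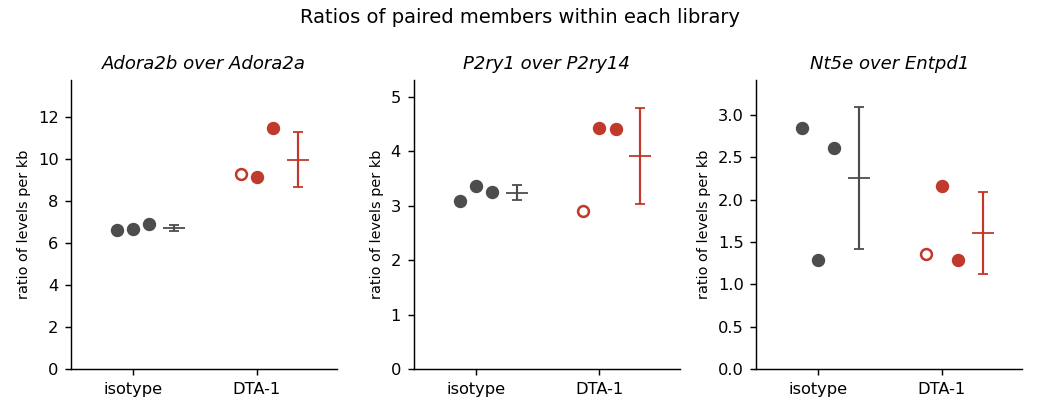
Ratio of the level per kb of 2 members within each library, for Adora2b over Adora2a, P2ry1 over P2ry14 and Nt5e over Entpd1, with isotype control (gray) and DTA-1 (red), with mean ± SD (n = 3). The open red circle is DTA-1 replicate 1, which lies with its group for Adora2b over Adora2a (9.27 against at most 6.88 with isotype control) and below the isotype control libraries for P2ry1 over P2ry14.

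The ectonucleotidases were low in both groups. Nt5e (CD73, ENSMUSG00000032420.8, chr9:88327197-88372092, plus strand) was at 9.81, 9.44 and 7.31 with isotype control and 8.35, 9.74 and 7.81 with DTA-1, from 249 to 347 counts. The groups overlapped fully, and the log2 fold change was −0.04 (SE 0.185), and −0.01 (SE 0.206) without DTA-1 replicate 1. Entpd1 (CD39, ENSMUSG00000048120.16, chr19:40612366-40741602, plus strand) had 64 to 166 counts, or 2.23, 4.73 and 1.81 normalized counts with isotype control and 3.98, 2.91 and 3.92 with DTA-1. Isotype control replicate 2 was the highest library and the other isotype control libraries the lowest, so the size of the difference depends on which libraries are used. The log2 fold change was 0.30 (SE 0.363), was 0.22 (SE 0.418) without DTA-1 replicate 1, and ranged from 0.05 without isotype control replicate 3 to 0.83 without isotype control replicate 2. A pseudogene within Entpd1, Gm8783, had 29.3 to 53.8 counts on the same strand, and the expected counts of Entpd1 were whole numbers in all 6 libraries.

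**Figure D4:**
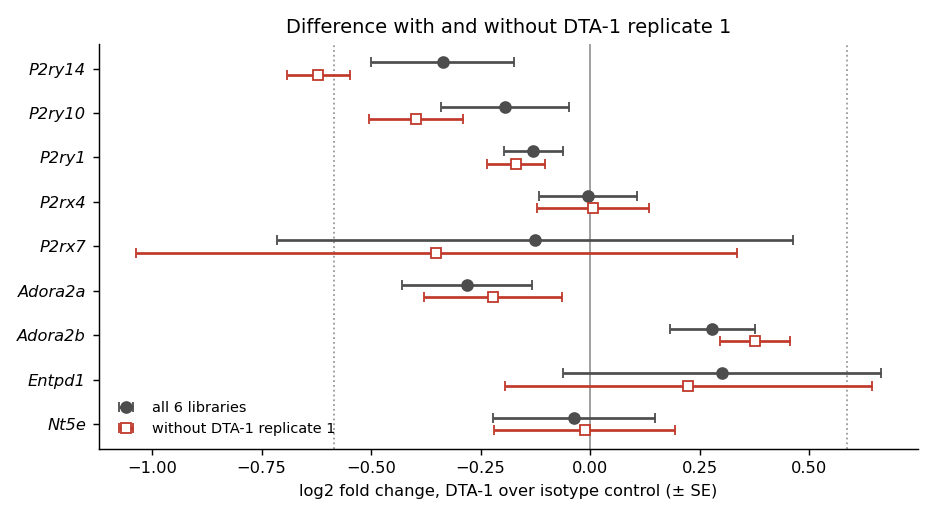
Log2 fold change of each gene, DTA-1 over isotype control, with its SE, for all 6 libraries (filled circles) and without DTA-1 replicate 1 (open squares); dotted lines mark 1.5-fold. P2ry14 passes the line only without that library (−0.62), and P2rx7 has the widest error.

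Across the 9 genes, DTA-1 replicate 1 was nearer to the isotype control mean than to the mean of DTA-1 replicates 2 and 3 for 6 (P2ry14, P2ry10, P2ry1, P2rx4, P2rx7 and Adora2b) and farther from it for Adora2a, Entpd1 and Nt5e. It lay within the isotype control range for 5. The means compared were almost equal for P2rx4 (43.6 with isotype control and 43.8 in DTA-1 replicates 2 and 3) and Nt5e (8.85 and 8.77). P2rx7 had few counts, so nearness says little for these genes.

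The rest of the pathway was taken from 9 lists with 76 genes, of which 75 were in the table and 52 passed the filter on low counts. With all 6 libraries edgeR called 0 of these 52 in either direction (2 passed both limits with the unadjusted p, Slc29a4 and Nlrp3, and 0 by DESeq2's Wald test). The mean was higher with DTA-1 for 35 and lower for 17, with a median log2 fold change of 0.06 (−0.01 over all genes). Without DTA-1 replicate 1, of 54 genes tested Nlrp3 was called as higher, beside 0.583% of all genes, and none as lower, beside 0.161%. Nothing is read from this call, since that library was left out with the values known. The median was then 0.08 (−0.015 over all genes). Among the genes named next, P2rx1 then went from a log2 fold change of −0.36 to 0.22 and Gja1 from −0.24 to −0.53, and neither was called.

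Few other receptors were detected. Of the 5 other P2X receptor genes only P2rx1 was tested, at 0 to 0.855 normalized counts in all libraries. Of the 6 other P2Y receptor genes, P2ry10b had no entry under that name, so its level is not known. Of the other 5 only P2ry2, the receptor for ATP and UTP, was tested. It was at 4.80, 11.0 and 5.13 with isotype control and 6.11, 5.06 and 6.46 with DTA-1. The groups overlapped (log2 fold change −0.25, adjusted p = 0.899 by edgeR). The adenosine receptor Adora1 had no count in any library and Adora3 had at most 11. Both receptors listed for lysophosphatidylserine beside P2ry10, Gpr34 and Gpr174, were tested. The higher, Gpr34, was at 37.2 to 46.9 with isotype control and 42.4 to 47.8 with DTA-1 (log2 fold change 0.15, adjusted p = 0.805 by edgeR). It lacked the low values that P2ry10 had in DTA-1 replicates 2 and 3.

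Of the 18 other ectonucleotidases and surface nucleotide enzymes 12 were tested, 8 with a higher and 4 with a lower mean with DTA-1. Entpd4, whose product acts within the Golgi and lysosomes, was the highest, at 85.5 to 105 with isotype control and 101 to 106 with DTA-1 (log2 fold change 0.15, adjusted p = 0.738). Entpd2 was at 0 to 0.684 and 0.352 to 0.744 (log2 fold change 0.98, adjusted p = 0.856). Of the 10 genes for nucleotide release 7 were tested, and Lrrc8c, a subunit of volume-regulated channels, was at 175 to 202 and 188 to 218 (log2 fold change 0.14, adjusted p = 0.738), while Gja1, the connexin 43 gene, was at 6.86 to 9.81 and 5.09 to 9.25 (log2 fold change −0.24, adjusted p = 0.864). For uptake and conversion of adenosine 10 of 12 genes were tested. The nucleoside transporter gene Slc29a1 was at 124 to 135 and 125 to 140, and Slc29a4, at 0.198 to 0.200 and 0.388 to 0.753, had the largest log2 fold change of the 52 genes tested (1.51, adjusted p = 0.655) from very few reads.

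All 15 genes of the cyclic AMP arm were tested. Gnas, which encodes the G protein that couples adenosine receptors to adenylyl cyclase, was the most abundant, at 1332 to 1422 with isotype control and 1355 to 1463 with DTA-1 (log2 fold change 0.06, adjusted p = 0.870). Adcy6, an adenylyl cyclase gene, was at 0.340 to 0.599 and 0.480 to 1.49 (log2 fold change 1.16, adjusted p = 0.702). Of the 6 genes of the inflammasome arm of P2X7, Gsdmd was at 79.5 to 86.7 and 79.9 to 93.7 (log2 fold change 0.09, adjusted p = 0.843), whereas Il1b and Il18 were not tested, with at most 1 and 7 counts. Nlrp3, the sensor of the inflammasome, was at 11.3, 12.8 and 11.0 with isotype control and 10.1, 27.3 and 24.7 with DTA-1. DTA-1 replicate 1 was the lowest library and replicates 2 and 3 were far above all others. Its log2 fold change was 0.82 (SE 0.291, adjusted p = 0.632) with all libraries and 1.15 (adjusted p = 0.00324) without DTA-1 replicate 1, and its adjusted p ranged from 0.00324 to 0.9985 over the alternatives tried. DTA-1 replicate 1 was left out with the values known, so nothing is read from the call of Nlrp3.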

How the data were processed

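RNA-seq of VAT ILC2s was analysed for DTA-1 and isotype control (3 libraries each). The authors deposited expected counts per gene, that is estimated reads without normalization. Their processing notes name bcl2fastq 2.17.1.14, STAR 2.5.3a, Partek and mm10, the paper's methods name Partek only, and annotation release and strand are not given in the sources used here. Exactly whole numbers made up 77.8% of the values and 43.1% of those above 0, and all were rounded before fitting. In R 4.3.3, edgeR 4.0.16 (filterByExpr by group, TMM, robust quasi-likelihood F test, no covariate) was fitted to all genes with Benjamini-Hochberg adjustment, and 14361 genes were tested. Normalized counts are CPM after TMM; the log2 CPM used for likeness has a prior count of 2. The procedure was tested on simulated data, where it recovered 158 of 200 genes changed 2-fold and called 13 unchanged genes. No simulated library stood apart as DTA-1 replicate 1 did, so this test does not tell how many changes were missed here. Lengths and coordinates are from GENCODE M21 (GRCm38), promoters from RefSeq (GRCm38.p6). The total count per library was 30569351 to 35131329.

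The 9 genes, the lists, the tests and the alternatives were chosen with earlier results of these data known. Of each list the text names the tested genes with the highest mean, the largest fold change and the smallest p, and any called. Gpr171, Med12l, P2ry12 and P2ry13 were named for their position, and cell markers after their values were seen. Alternatives were DESeq2 1.42.0 size factors, library totals, DESeq2's Wald test, no filter, at least 10 counts in every library, unrounded counts, leaving out each library in turn, a replicate block, and other call rules. The length of the longest protein-coding transcript was an alternative added after seeing the data. With 3 libraries a group, permutation could not give a p under 0.1, and single genes were not tested that way. Plots were made with matplotlib 3.10.9.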

Additional observations from a re-analysis of the deposited data

How the results depend on the processing

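No other scaling, filter or tool called any of the 9 genes. P2ry14 was called without DTA-1 replicate 1, but as a member chosen on this contrast, so nothing is read from that call. The number of genes called was 0 with all libraries, 25 by DESeq2's Wald test, 2 without a filter, 1 with the replicate block, 337 at an unadjusted p, and 0 to 111 with 1 library left out, 111 being without DTA-1 replicate 1. For other purinergic genes it was 0, 2 at an unadjusted p and 0 to 1 with 1 library left out. Same-numbered libraries deviated from their group means with r of −0.007, −0.003 and 0.015. These values cannot tell whether such libraries share a mouse, sort or day, which the labels do not give. The block called no purinergic gene. With 1 library left out, the number of members with a higher mean in DTA-1 was 2 to 5 (2 with all libraries) and their median log2 fold change was −0.17 to 0.03, above 0 only without DTA-1 replicate 3. For single genes the log2 fold change was then −0.62 to −0.20 for P2ry14, −0.40 to −0.05 for P2ry10, −0.17 to −0.09 for P2ry1, −0.41 to −0.22 for Adora2a, 0.22 to 0.38 for Adora2b, −0.07 to 0.11 for P2rx4 and −0.16 to 0.05 for Nt5e. Scaling, filter, tool and block left these within −0.38 to −0.33, −0.23 to −0.19, −0.17 to −0.13, −0.32 to −0.28, 0.24 to 0.28, −0.043 to −0.001 and −0.07 to −0.03. P2rx1 went from −1.23 to 0.22 and P2ry2 from −0.45 to 0.24 with 1 library left out. Slc29a1 went from −0.019 to 0.055 then and to −0.016 with library totals. Nlrp3 was called at 1.15 without DTA-1 replicate 1, which was left out with the values known, so nothing is read from that call either. The cause of these changes was not tested. P2rx7, Entpd1 and Slc29a4 had few counts, and P2rx7 and Entpd1 also varied widely within isotype control.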
